A study of Homo sapiens with 4 samples.

Results

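Frame-breaking alternative coding exons are skipped exons whose length is not a multiple of 3, so that leaving them out of a coding transcript shifts the reading frame of everything downstream. Members were chosen by their deposited values: an exon of 31 to 499 nt that overlaps coding sequence of a GENCODE transcript on hg38, a sum of inclusion reads and of reads that span its skipping (exclusion reads in the deposited tables, called skipping reads below) of at least 10 in each of the LM2 and parental tables, and a mean of the LM2 and parental inclusion levels between 0.2 and 0.8. Where several events described 1 exon, the event with most such reads stood for it. The rule found 1827 exons among 21631 exons with the read minimum and 33165 exons listed in both tables. They lay in 1443 genes on 23 chromosomes. Of these genes 298 held at least 2 members, the most being 6, and 311 members overlapped another member, so the members are not independent of each other. The levels were part of the rule, and they are given below as a description.

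The cells studied were MDA-LM2, a derivative of the human breast cancer line MDA-MB-231 that is highly metastatic to the lung, and they were set against the parental MDA-MB-231 line. Total RNA of 2 samples of each line was sequenced, and no treatment was named for either line. MISO, which estimates from the reads how often an exon is kept, was reported in 1 table for each line, with no column for a replicate, and in 1 table of the comparison. Differences between LM2 and parental cells therefore had no replicate check, and every interval below covers counting and model error within a table only. Of the markers of the line, CD44, AXL and EPHA2 had from 2883 to 54542 reads in their best covered event in each table, while the events of ESR1 and PGR, the hormone receptors this line lacks, had 1 or 2 reads, and the epithelial cadherin gene CDH1 had 11 in LM2 and 13 in parental cells. PTPRC, a marker of leukocytes, had 5 reads in LM2 cells and 2 in parental cells. The other 10 markers had no event in both tables.

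A ribosome reads codons of 3 nt, and an exon of any other length moves it into a different frame, where a stop codon is usually met soon. When such a stop lies well upstream of the last exon junction, the exon junction complex left downstream of it can recruit UPF1, and the mRNA is degraded by nonsense-mediated decay. Exons that introduce a stop when they are included are called poison exons; many genes for splicing factors use them to limit their own output. A frameshift near the end of a coding sequence can instead give a protein with another C-terminus, and an exon that holds the start codon can switch the protein off or move its start.

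The sequences below show where the frame ended in a few members on which the results turn. They were read from GENCODE 29 transcripts on hg38, 5′ to 3′ on the strand of the gene, with the in-frame stop codon in capitals. The first set shows exons that end the frame when they are included, each printed from its first base. The EIF4A2 exon lay at chr3:186788310-186788416 on the plus strand, the RBM39 exon at chr20:35740525-35740597 on the minus strand, the SSBP4 exon at chr19:18425909-18426083 on the plus strand, the SERGEF exon at chr11:17999494-17999572 on the minus strand and the BRD2 exon at chr6:32975021-32975112 on the plus strand.
EIF4A2 exon to its stop: gagtcgaTAG
RBM39 exon to its stop: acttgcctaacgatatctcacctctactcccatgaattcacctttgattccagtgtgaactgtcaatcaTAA
SSBP4 exon to its stop: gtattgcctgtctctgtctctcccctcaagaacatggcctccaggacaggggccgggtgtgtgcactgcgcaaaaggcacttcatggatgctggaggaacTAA
SERGEF exon to its stop: gacagcacTAA
BRD2 exon and on to the stop: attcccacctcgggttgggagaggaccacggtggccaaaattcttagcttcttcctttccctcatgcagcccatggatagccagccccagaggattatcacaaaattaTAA
The EIF4A2 and SERGEF exons reached a stop within 10 and 11 nt, and the RBM39 exon after 72 of its 73 nt. The BRD2 exon held no stop in frame, and the frame it opened met one in the following exon, with the stop ending 111 nt from the first base of the exon.

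The second set shows transcripts that end early when the exon is left out. Each run starts at a codon boundary, 12 or 13 nt upstream of the new junction, and continues to the first stop in frame. The skipped exons were DBF4B at chr17:44732178-44732265, MELK at chr9:36583627-36583712, NAA40 at chr11:63946951-63947003, EIF4A2 at chr3:186784962-186785101 and ENOPH1 at chr4:82451043-82451245, all on the plus strand.
DBF4B skipped form: atcagaaaccagaaaTGA
MELK skipped form: actattgggacagagTGA
NAA40 skipped form: gctgccaacagggttgaatgtctccatTGA
EIF4A2 skipped form: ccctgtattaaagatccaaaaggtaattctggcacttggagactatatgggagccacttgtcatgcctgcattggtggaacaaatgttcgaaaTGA
ENOPH1 skipped form: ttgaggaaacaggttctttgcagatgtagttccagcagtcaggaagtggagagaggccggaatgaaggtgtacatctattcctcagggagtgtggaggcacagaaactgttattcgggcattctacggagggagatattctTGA
The stop codon of the DBF4B form ended 6 nt after the new junction, that of MELK 5 nt, that of NAA40 18 nt, that of EIF4A2 83 nt and that of ENOPH1 132 nt.

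The third set shows members that close their frame near the end of the gene in both forms. The exon of ITGA6, which encodes the alpha6 subunit of laminin-binding integrins, lay at chr2:172501772-172501901 on the plus strand and was exon 25 of 26. Its inclusion gives the cytoplasmic tail known as alpha6A and its skipping the tail known as alpha6B. LTA4H, which encodes leukotriene A4 hydrolase, had its exon at chr12:96003838-96003920 on the minus strand, exon 17 of 19.
ITGA6 exon to its stop: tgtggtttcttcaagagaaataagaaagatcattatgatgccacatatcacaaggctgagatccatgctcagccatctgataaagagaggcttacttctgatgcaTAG
ITGA6 skipped form: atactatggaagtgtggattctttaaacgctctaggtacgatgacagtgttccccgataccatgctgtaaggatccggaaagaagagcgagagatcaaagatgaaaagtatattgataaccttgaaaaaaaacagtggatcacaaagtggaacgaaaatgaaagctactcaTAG
LTA4H skipped form: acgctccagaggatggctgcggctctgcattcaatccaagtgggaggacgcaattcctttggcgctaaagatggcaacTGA
Including the ITGA6 exon closed the frame 108 nt into it, and skipping it closed the frame 162 nt after the new junction, so that the forms end in different exons. The skipped form of LTA4H met a stop 69 nt after the junction, 36 nt upstream of the last junction and so short of the 50 nt used below.

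The fourth set is a pair of exons that replace each other in U2AF1, the small subunit of the factor that binds the 3′ splice site. Both were 67 nt, fully coding and exon 3 of 8 in their GENCODE transcripts on the minus strand of chromosome 21, so that 1 in place of the other keeps the frame, and both or neither shifts it. In the deposited events each of them had the other as a flanking exon.
U2AF1 exon at chr21:43101366-43101432: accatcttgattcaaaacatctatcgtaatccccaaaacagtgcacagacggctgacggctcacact
U2AF1 exon at chr21:43100453-43100519: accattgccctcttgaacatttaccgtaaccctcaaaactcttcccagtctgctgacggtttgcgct
They matched at 44 of 67 positions, or 65.7%.

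The reads supported skipping in only some members. An inclusion read fits only the form with the exon, a read of skipping only the form without it, and a read of both forms lies in the flanking exons. Over all members the LM2 table held 190213 inclusion and 15404 skipping reads, and those of parental cells were 208235 and 18573. In 623 members (34.1%) no skipping read was found in either table, 909 (49.8%) had at least 1 in each and 472 (25.8%) at least 5 in each. Among frame-preserving alternative coding exons, the 1585 exons that passed the same rule with a length divisible by 3, 23.3% had no skipping read and 38.7% had at least 5 in each table; among all exons with the read minimum these shares were 30.6% and 40.4%. The level computed from inclusion and skipping reads, (inclusion/2)/(inclusion/2 + skipping), had a median of 0.96 in LM2 and 0.95 in parental cells, against medians of the deposited level of 0.6 in LM2 and 0.57 in parental cells. The read-based level makes no correction for exon length and so lies higher for long exons. MISO also uses reads of both forms, and the levels of those 623 exons were given with no read across the skipping junction, so that for them the word alternative rests on the deposited level alone. The junction that skips the exon was annotated in GENCODE for 1727 members (94.5%).

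**Figure D1:**
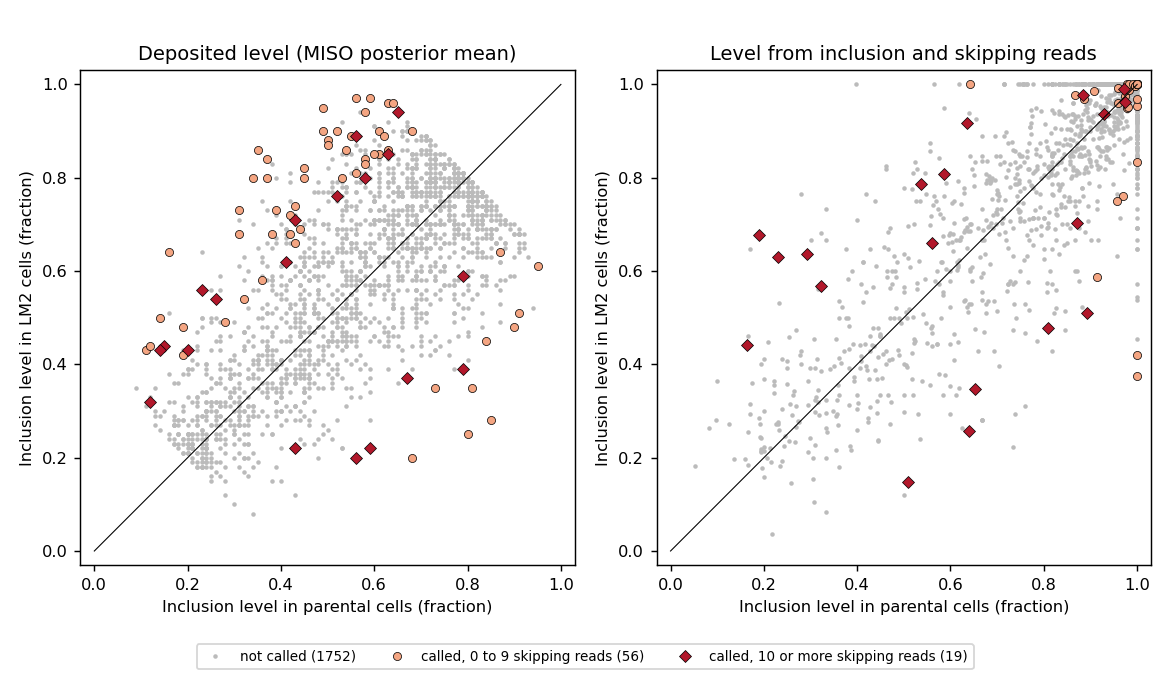
Inclusion level of each of the 1827 members in LM2 cells (vertical axis, fraction) against parental cells (horizontal axis, fraction), as deposited (left) and from inclusion and skipping reads (right); 1 point is 1 exon and the line marks equal levels. Called members with 10 or more skipping reads (diamonds) mostly kept their distance from the line on the right, while those with 0 to 9 (circles) mostly moved to its upper end.

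The transcript that carried each exon was read with and without it. A stop was called premature where it lay more than 50 nt upstream of the last exon junction. A complete coding transcript with the exon was found for 1479 members, and in 1258 of them its neighbouring exons were those of the deposited event. Where several carried the exon, a protein-coding transcript was taken ahead of a transcript typed as nonsense-mediated decay, and matching neighbours came next. How the classes below depend on this order was not tested. Skipping gave a premature stop in 767 members (42% of 1827), against 1 of 1585 frame-preserving exons. The stop ended at a median of 35 nt after the new junction (quartiles 15 and 75.5). Inclusion gave a premature stop in 182 members (9.96%), against 58 frame-preserving exons (3.66%); 177 of the 182 were read from transcripts that GENCODE types as nonsense-mediated decay, and 162 held the stop codon themselves. In 70 of the 182 that transcript had no stop in frame once the exon was left out, so the skipped form could not be read to its end. Neither form had a premature stop in 286 members (15.7%) and in 1151 frame-preserving exons (72.6%). Both forms had one in 52 members, the exon held the start codon in 179, the skipped form had no stop in a further 13, and 348 had no complete coding transcript. These shares follow in large part from exon length, which the rule used, and no RNA degradation was measured.

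**Figure D2:**
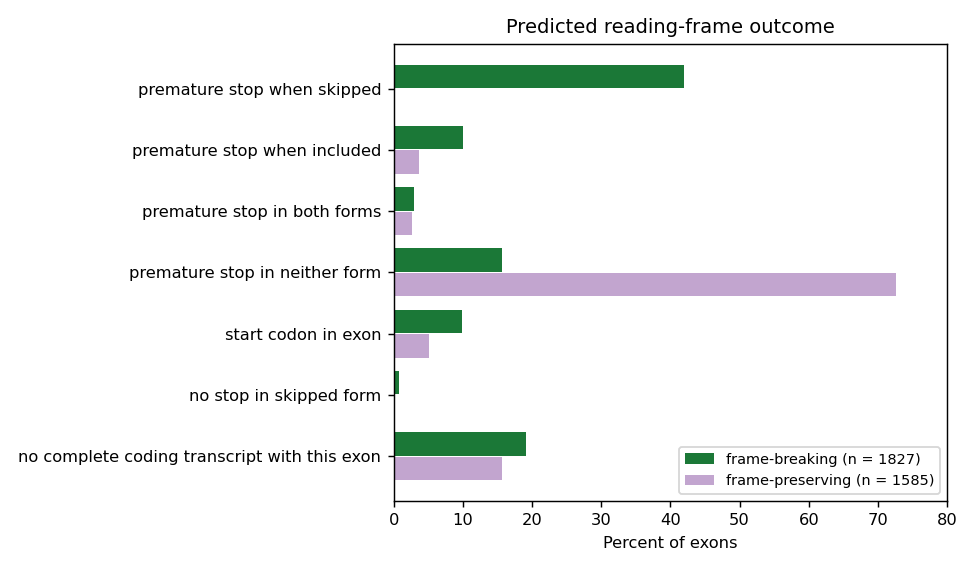
Percent of the 1827 frame-breaking members (upper bars) and of the 1585 frame-preserving exons (lower bars) in each predicted outcome of the reading frame. A premature stop on skipping was predicted for 42% of the members and for 1 frame-preserving exon.

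Skipping reads were spread unevenly over these outcomes. Where skipping broke the frame, 162 of 767 members (21.1%) had 10 or more skipping reads over both tables, the median was 1, and the median deposited level was 0.66 in LM2 and 0.64 in parental cells. Where inclusion broke it, 119 of 182 members (65.4%) had 10 or more, the median was 17, and the median deposited level was 0.37 in LM2 and 0.37 in parental cells. In both classes the median deposited level lay on the side of the form without the predicted premature stop. The median read-based level did so only where skipping broke the frame, at 1 in LM2 and 0.99 in parental cells. Where inclusion broke it, that level was 0.65 in LM2 and 0.62 in parental cells, on the side of the form with the stop. Of the members with no premature stop in either form 31.5% had 10 or more skipping reads, and of those with the start codon 35.8%. The classes also differ in the annotation behind them. All 767 members of the first were read from transcripts typed as protein coding, and 177 of the 182 from transcripts typed as nonsense-mediated decay. The latter type was taken only where no complete protein-coding transcript carried the exon. How far this choice shaped the contrast was not tested. Decay, which would remove the early-stopped form from the RNA, cannot be told apart from less production of that form in these data.

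**Figure D3:**
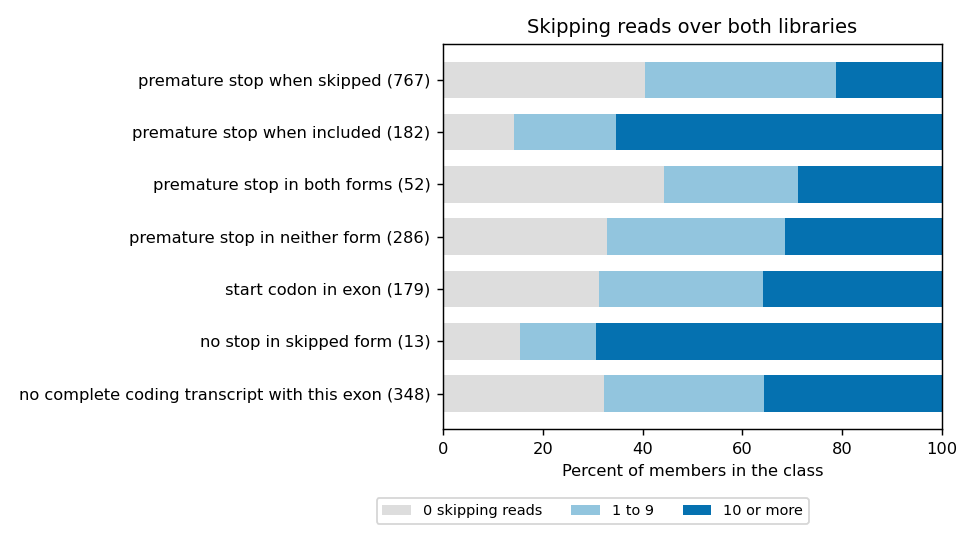
Percent of members in each predicted outcome with 0, 1 to 9 or 10 or more skipping reads over both tables; the number of members stands in brackets. The class with a premature stop on inclusion had 65.4% of members with 10 or more, and the class with a premature stop on skipping 21.1%.

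Between LM2 and parental cells the members changed little as a group. The deposited level differed by a median of 0.02 (LM2 minus parental, quartiles -0.07 and 0.11), against a median of 0.01 over frame-preserving exons and 0 over all exons with the read minimum. Over the 4810 exons with a mean level of 0.2 to 0.8, which include the members, the median was also 0.02 (quartiles -0.07 and 0.11). The median read-based difference of the members was 0 (quartiles -0.022 and 0.028). The absolute deposited difference was under 0.1 in 918 members and at least 0.2 in 356. Across members the LM2 and parental levels correlated with Pearson r = 0.71 as deposited and r = 0.88 from reads, a description over 1827 exons that share their libraries. The 623 members with no skipping read have a read-based level of 1 in both lines by its formula. Over the 472 members with at least 5 skipping reads in each table, r was 0.847 as deposited and 0.862 from reads. The median width of the 95% interval of a level was 0.32 in LM2 and 0.29 in parental cells, wider than most differences.

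A member was called where the deposited Bayes factor was at least 10 and the deposited difference at least 0.2. By this rule 59 members (3.23%) were higher in LM2 and 16 (0.876%) lower. The background for all exons with the read minimum was 0.846% higher and 0.254% lower. For the 4810 exons of any length class with a mean level of 0.2 to 0.8 it was 3.24% higher and 1.02% lower, and for frame-preserving exons it was 3.15% higher and 1.45% lower. The 4810 exons include the members themselves. The members' share called higher lay near that of the frame-preserving exons, and their share called lower was smaller, 0.876% against 1.45%, a difference that was not tested. All exons with at least 5 skipping reads in each table were called in 0.492% (higher) and 0.263% (lower). Of the 472 members with that many, 10 (2.12%) were called higher and 5 (1.06%) lower, against 1.96% and 1.96% of the frame-preserving exons with that many. Of the 59 members called higher, 30 had no skipping read in either table, 16 had 1 to 9 over both and 13 had 10 or more; of the 16 called lower, these numbers were 3, 7 and 6. The level from reads differed the same way, by no less than 0.1, in 10 of the 59 and 12 of the 16. Inclusion reads per read of both forms were higher in LM2 by a median factor of 1.05 over members and 1.04 over all exons with the read minimum. This ratio moved the same way in 58 of the 59 members called higher and 15 of the 16 called lower, and its part in the calls was not tested.

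Among the called members with 10 or more skipping reads, ITGA6 had the most reads. Its exon had a level of 0.85 in LM2 (95% interval 0.84 to 0.86), against 0.63 in parental cells (0.61 to 0.65). LM2 cells gave 4787 inclusion and 649 skipping reads, against 1787 and 774 in parental cells. Skipping reads were 11.9% of these in LM2 (exact binomial 95% interval 11.1 to 12.8) and 30.2% in parental cells (28.4 to 32), so the intervals did not overlap. The odds of inclusion over skipping reads were 3.19 times as high in LM2 (exact interval 2.84 to 3.6). Skipping reads, which belong to the alpha6B form printed above, were thus found in both lines. A gene on the opposite strand, AC078883.1, overlaps this exon, and no source used here says whether reads were counted by strand.

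LTA4H, the enzyme that makes leukotriene B4, behaved likewise, with a level of 0.8 in LM2 and 0.58 in parental cells. LM2 had 398 inclusion and 47 skipping reads, against 452 and 159 in parental cells, an odds ratio of 2.98 (2.07 to 4.33). An annotated gene on the other strand, AC007298.2, overlaps this exon too. MED15, which encodes a Mediator subunit, had a 118 nt exon at 0.54 in LM2 and 0.26 in parental cells, with 71 inclusion and 27 skipping reads in LM2 cells, against 20 and 21 in parental cells. No complete coding transcript carried that exon.

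DBF4B and NAA40 were called higher in LM2, and their exons would end the frame when skipped. DBF4B encodes an activating partner of the replication kinase CDC7. Its 88 nt exon had 35 inclusion and 10 skipping reads in LM2 cells, against 47 and 57 in parental cells. The level was 0.56 in LM2 (0.4 to 0.72) and 0.23 in parental cells (0.17 to 0.3), an odds ratio of 4.2 (1.81 to 10.6). NAA40 encodes an acetyltransferase of histone N-termini. Its 53 nt exon had 45 inclusion and 2 skipping reads in LM2 cells, against 35 and 10 in parental cells, at levels of 0.89 in LM2 and 0.56 in parental cells. Reads of the forms with and without each of these exons were found in both lines.

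SERGEF, ZNF573, LMBRD1 and PDGFC were called higher in LM2 too. Their exons would end the frame when included in the annotated transcript that was read for each. SERGEF, named for a guanine nucleotide exchange factor linked to secretion, had 17 inclusion and 5 skipping reads for its 79 nt exon in LM2, against 15 and 25 in parental cells. Its level was 0.44 in LM2 and 0.15 in parental cells. ZNF573, a zinc finger gene, had 30 inclusion and 19 skipping reads for its 191 nt exon in LM2, against 15 and 38 in parental cells. Its level was 0.32 in LM2 and 0.12 in parental cells, an odds ratio of 3.94 (1.62 to 9.99). LMBRD1, which acts in the export of cobalamin from lysosomes, had 168 inclusion and 2 skipping reads in LM2 cells, against 182 and 12 in parental cells, at levels of 0.94 in LM2 and 0.65 in parental cells. Its exon was thus carried by nearly all of these reads in both lines, and it lies in more than 1 gene of the same strand. PDGFC, a growth factor gene, had a 61 nt exon at 0.43 in LM2 and 0.2 in parental cells, but with 8 skipping reads in LM2 cells and 9 in parental cells the read-based levels were 0.66 and 0.561, an odds ratio of 1.51 whose interval (0.44 to 5.27) held 1.

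SMC1A, a subunit of cohesin, had its 146 nt exon with an annotated start codon at 0.43 in LM2 and 0.14 in parental cells. It rested on 21 inclusion and 5 skipping reads in LM2 cells, against 8 and 17 in parental cells, and its odds ratio of 8.48 had an interval of 2.12 to 40.3. The other 3 members called higher with 10 or more skipping reads were in NSD2, a histone methyltransferase gene, SAE1, a subunit of the SUMO-activating enzyme, and PPP2R5E, a regulatory subunit of protein phosphatase 2A. Their read-based levels were close to each other in the lines: 0.963 in LM2 and 0.973 in the parental line for NSD2, 0.991 in LM2 and 0.973 in the parental line for SAE1, and 0.938 in LM2 and 0.93 in the parental line for PPP2R5E. The deposited differences of these exons, from 0.21 to 0.28, were thus not matched by a difference in skipping reads.

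**Figure D4:**
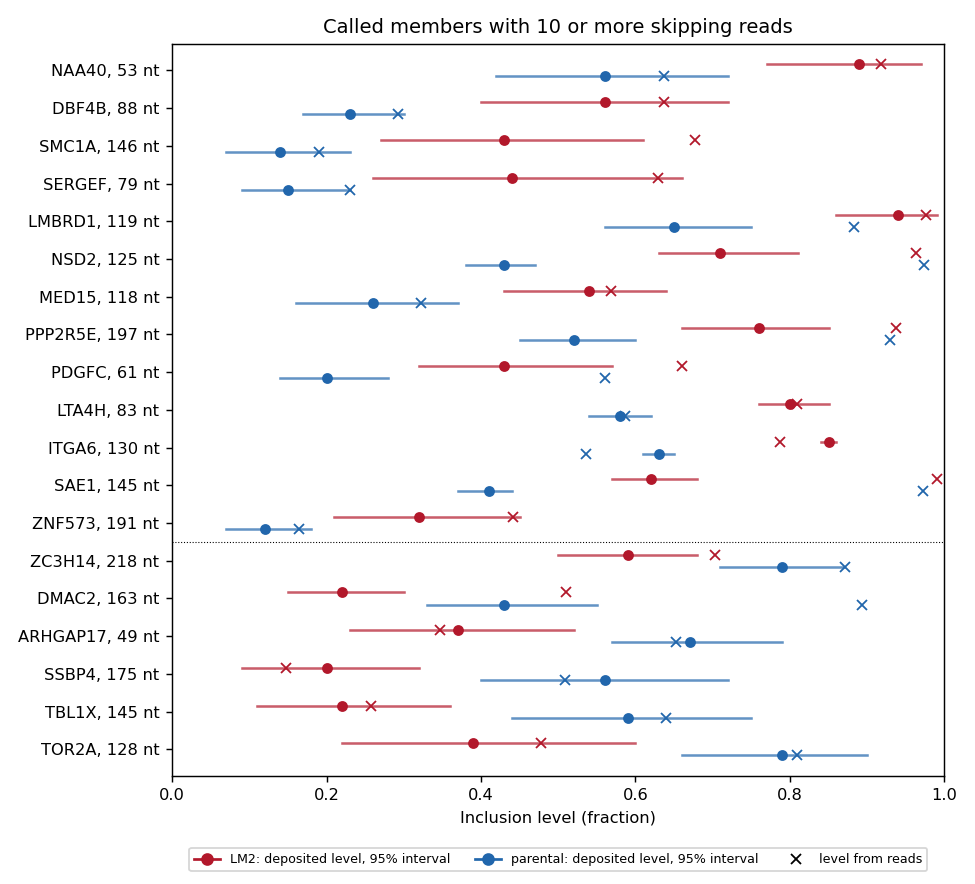
Inclusion level (fraction) of the 19 called members with 10 or more skipping reads, LM2 above parental in each row: circles are deposited levels with 95% intervals, crosses the levels from inclusion and skipping reads. The 13 members above the dotted line were called higher in LM2 and the 6 below it lower; the crosses nearly coincide in NSD2, PPP2R5E and SAE1.

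Of the members called lower in LM2, 6 had 10 or more skipping reads. SSBP4, of a family of single-stranded DNA-binding proteins, had 9 inclusion and 26 skipping reads for its 175 nt exon in LM2, against 29 and 14 in parental cells. Its level was 0.2 in LM2 (0.09 to 0.32) and 0.56 in parental cells (0.4 to 0.72), an odds ratio of 0.171 (0.0546 to 0.497). This exon carries the stop printed above; the annotated transcript that holds it is 1 of those with no stop in frame once the exon is left out. TBL1X, part of a transcriptional corepressor complex, had 9 inclusion and 13 skipping reads in LM2 cells, against 39 and 11 in parental cells, for an exon with an annotated start codon. Its levels were 0.22 in LM2 and 0.59 in parental cells.

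ZC3H14, which encodes a zinc finger protein that binds poly(A), had a 218 nt exon at 0.59 in LM2 and 0.79 in parental cells. LM2 gave 147 inclusion and 31 skipping reads, against 216 and 16 in parental cells, an odds ratio of 0.352 (0.173 to 0.691). ARHGAP17, a gene for a GTPase-activating protein, had 17 inclusion and 16 skipping reads in LM2 cells, against 60 and 16 in parental cells, at levels of 0.37 in LM2 and 0.67 in parental cells. DMAC2, linked to assembly of respiratory complex I, had 25 inclusion and 12 skipping reads in LM2 cells, against 50 and 3 in parental cells, and TOR2A, a torsin family ATPase gene, had 11 and 6 in LM2, against 51 and 6 in parental cells. In each of these genes the share of skipping reads was larger in LM2, and the last 3 rested on 17 to 37 reads in LM2.

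The members called with no skipping read in either table were 30 higher and 3 lower in LM2. RPS2, a protein of the small ribosomal subunit, had 5794 inclusion reads in LM2 cells and 3492 in parental cells, at deposited levels of 0.81 in LM2 and 0.56 in parental cells. With 0 skipping reads, the share of skipping reads could be at most 0.0518% in LM2 and 0.0859% in parental cells by a limit of 3 reads. EIF4A1, a helicase of translation initiation, had 6536 inclusion reads in LM2 cells and 3477 in parental cells at levels of 0.96 in LM2 and 0.63 in parental cells, with limits of 0.0459% in LM2 and 0.0863% in parental cells. GNB1, a G protein beta subunit gene, had 337 inclusion reads in LM2 cells and 118 in parental cells, at levels of 0.64 in LM2 and 0.16 in parental cells. Skipping was thus not detectable at this depth in any of these genes, in either line.

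Further members of this kind were DDX3X, an RNA helicase gene, at 0.85 in LM2 and 0.61 in parental cells, FHL2, a LIM domain gene, at 0.95 in LM2 and 0.49 in parental cells, and ERRFI1, an inhibitor of the EGF receptor, at 0.5 in LM2 and 0.14 in parental cells. KLF6, a zinc finger transcription factor gene, was called lower, at 0.64 in LM2 and 0.87 in parental cells with 110 and 298 inclusion reads and no skipping read. RPS3 had 2 overlapping exons of 143 and 95 nt that share reads, both called higher on 4 skipping reads in LM2 cells and 2 in parental cells. A further exon of RPS3, of 154 nt, had 4476 inclusion reads in LM2 cells and 3144 in the parental line, with 0 and 1 skipping reads, and lay the other way at 0.69 in LM2 and 0.85 in the parental line, under the size needed for a call. Ribosomal protein genes have many processed copies in the genome, and no source used here says how reads that fit several places were counted, so their values are uncertain. The 6 called members with under 20 informative reads in a table were in AL157392.5, HEATR3, MCM4, MOCS1, TOR2A and VPS37A.

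EIF4A2, a second translation initiation helicase, held 2 members with opposite predictions. Its 107 nt exon, which ends the frame when included, had 2072 inclusion and 247 skipping reads in LM2 cells, against 1512 and 363 in parental cells. Its level was 0.83 in LM2 and 0.69 in parental cells, an odds ratio of 2.01 (1.69 to 2.41). Its 140 nt exon, which ends the frame when skipped, had 1717 inclusion and 210 skipping reads in LM2 cells, against 2052 and 165 in parental cells. Its level was 0.65 in LM2 and 0.74 in parental cells, an odds ratio of 0.658 (0.528 to 0.819). For both exons the form that stops early had a larger share of reads in LM2 than in parental cells. For the 140 nt exon it remained the form with fewer reads in both lines. Both Bayes factors were above 10, but the differences of 0.14 and -0.09 were under the 0.2 needed for a call.

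Other well covered exons with a predicted stop on inclusion were not called, and the levels of those named here differed by at most 0.07. RBM39, a splicing factor gene, had 2 of them between the same flanking exons, which share their skipping reads, 212 in LM2 and 239 in the parental line. The 155 nt exon had 764 inclusion reads in LM2 cells and 735 in parental cells, at levels of 0.42 in LM2 and 0.38 in parental cells. The 73 nt exon printed above had 146 inclusion reads in LM2 cells and 241 in parental cells, at levels of 0.19 in LM2 and 0.26 in parental cells, an odds ratio of 0.683 (0.513 to 0.909). BRD2, which encodes a bromodomain protein that reads acetylated histones, had a level of 0.22 in LM2 and 0.2 in parental cells, with 84 inclusion and 148 skipping reads in LM2 cells, against 113 and 209 in parental cells. RASA1, a Ras GTPase-activating protein gene, had levels of 0.39 in LM2 and 0.36 in parental cells, with an odds ratio of 1.04 (0.75 to 1.43). RPLP0, a ribosomal stalk protein gene, had many more reads, 6371 inclusion and 74 skipping reads in LM2 cells, against 7506 and 119 in parental cells. Its level was 0.74 in LM2 and 0.77 in parental cells. The read-based levels were 0.977 in LM2 and 0.969 in parental cells, so nearly all of these reads carried the exon. Its stop was read from a transcript typed as nonsense-mediated decay, with no stop in frame once the exon is left out.

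The following well covered exons, whose skipping would end the frame, were not called either. MELK, a kinase gene of dividing cells, had 553 inclusion and 131 skipping reads in LM2 cells, against 725 and 152 in parental cells, at levels of 0.69 in LM2 and 0.72 in parental cells. ENOPH1, a gene of the methionine salvage pathway, had 633 inclusion and 33 skipping reads in LM2 cells, against 794 and 85 in parental cells. Its level was 0.8 in LM2 and 0.68 in parental cells, an odds ratio of 2.05 (1.34 to 3.21), below the size needed for a call. RAD1, part of a DNA damage checkpoint clamp, had levels of 0.4 in LM2 and 0.47 in parental cells. CLTC, the clathrin heavy chain gene, had 3314 inclusion reads in LM2 cells and 4552 in parental cells with no skipping read in either, and a level of 0.76 in LM2 and in parental cells.

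In U2AF1 each deposited event had the other exon of the pair as a flanking exon, so that inclusion joins both exons and skipping leaves 1. Neither exon was called. The U2AF1 exons printed above had levels of 0.4 in LM2 and 0.39 in the parental line for the exon nearer the 3′ end of the gene, and 0.23 in LM2 and 0.2 in the parental line for the other. An inclusion read can also lie within the exon, in a transcript that holds it alone. These levels therefore do not measure how often both exons were joined. Both exons were counted above with a premature stop when skipped, from transcripts whose neighbouring exons were not those of the event. In the event itself, skipping leaves 1 exon and keeps the frame.

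Members with no early stop in either form would, by the annotated transcript, change the end of the protein instead, and no protein was measured. SKA2, a kinetochore gene, had 621 inclusion and 138 skipping reads in LM2 cells, against 836 and 187 in parental cells, at levels of 0.66 in LM2 and 0.6 in parental cells. PFDN1, a prefoldin subunit gene, had 1666 inclusion and 191 skipping reads in LM2 cells, against 2039 and 152 in parental cells, at levels of 0.74 in LM2 and 0.81 in parental cells and an odds ratio of 0.65 (0.517 to 0.817). FXR1, an RNA-binding protein gene related to FMR1, had levels of 0.81 in LM2 and 0.79 in parental cells. EMC4, a subunit of the membrane protein insertion complex of the endoplasmic reticulum, had a level of 0.47 in both LM2 and parental cells, with 28 skipping reads in LM2 cells and 17 in parental cells. FOSL1, an AP-1 subunit gene, had 0.57 in LM2 and 0.56 in parental cells.

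Exons with a start codon included several with many skipping reads. ACIN1, whose protein associates with the exon junction complex, had a 62 nt exon with 84 inclusion and 37 skipping reads in LM2 cells, against 66 and 109 in parental cells. Its level was 0.36 in LM2 and 0.17 in parental cells, an odds ratio of 3.73 (2.23 to 6.34), with a difference just under the size needed for a call. WARS, the cytoplasmic tryptophanyl-tRNA synthetase gene, had 290 inclusion and 13 skipping reads in LM2 cells, against 266 and 39 in parental cells, at levels of 0.73 in LM2 and 0.54 in parental cells. BTBD10, a BTB domain gene, had 261 inclusion and 96 skipping reads in LM2 cells, against 321 and 49 in parental cells, at levels of 0.5 in LM2 and 0.66 in parental cells. HNRNPR had 2 overlapping versions of its exon, of 166 and 169 nt, which share 245 skipping reads in LM2 cells and 246 in parental cells and had levels from 0.29 to 0.33. SNU13, a protein of the spliceosomal tri-snRNP, had 198 inclusion and 213 skipping reads in LM2 cells, against 211 and 157 in parental cells, at levels of 0.2 in LM2 and 0.23 in parental cells.

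The members were also read by the role of their gene, over 12 lists drawn up with earlier results of these data known. Of 42 members in DNA repair genes 1 was called higher (BARD1, 0.84 in LM2 and 0.58 in parental cells, on 3 and 2 skipping reads) and none lower. Of 39 in membrane traffic genes 3 were higher (SNX5, TRAPPC1, TRAPPC2L) and 2 lower (GOLT1B, VPS37A). Their read-based differences were -0.032 in SNX5, -0.03 in TRAPPC1, 0 in TRAPPC2L, -0.047 in GOLT1B and -0.167 in VPS37A. Of 34 in ubiquitin genes 3 were higher (CUL4A, RNF138, USP13), with read-based differences of 0 in CUL4A, 0 in RNF138 and 0.11 in USP13. Of 31 in chromatin genes 4 were higher (HDAC1, JMJD1C, NSD2, PHF20) and 1 lower (TBL1X). Their read-based differences were 0.022 in HDAC1, 0 in JMJD1C, -0.01 in NSD2, -0.029 in PHF20 and -0.382 in TBL1X. Of 23 in mitosis genes 1 was lower (SKA3), and of 11 in cytoskeleton and adhesion genes 1 was higher (ITGA6) and 2 lower (ARHGAP17, RIPOR1). Here the read-based differences were -0.207 in SKA3, 0.251 in ITGA6, -0.305 in ARHGAP17 and -0.581 in RIPOR1. Of 19 in genes of hnRNPs and splicing regulators 2 were higher, among them RBM23, whose read-based difference was 0.008. The lists of mitochondrial proteins (25 members), apoptosis (10), core spliceosome (9), SR proteins and splicing kinases (6) and nonsense-mediated decay with the exon junction complex (5) held no called member. Over all members 3.23% were called higher and 0.876% lower, and over all exons with the read minimum 0.846% and 0.254%. List medians of the difference ran from -0.04 to 0.055, beside 0.02 over all members.

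Within the decay machinery itself, UPF3A, an activator or antagonist of decay depending on context, had a 142 nt exon with 288 inclusion and 61 skipping reads in LM2 cells, against 405 and 48 in parental cells. Its level was 0.52 in LM2 and 0.66 in parental cells, an odds ratio of 0.56 (0.364 to 0.858), and it was not called. RNPS1 of the exon junction complex had 0.77 in LM2 and 0.69 in parental cells on 2 skipping reads in each. Among splicing factors, TRA2A had a 301 nt exon at 0.51 in LM2 and 0.55 in parental cells, CLK4, a kinase of SR proteins, a 91 nt exon at 0.88 in LM2 and 0.71 in parental cells, and SREK1 a 124 nt exon at 0.25 in LM2 and 0.2 in parental cells. CENPA, the centromeric histone H3, had a 332 nt exon that ends the frame when included at 0.55 in LM2 and 0.4 in parental cells, with 131 inclusion and 4 skipping reads in LM2 cells, against 158 and 16 in parental cells.

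**Figure D5:**
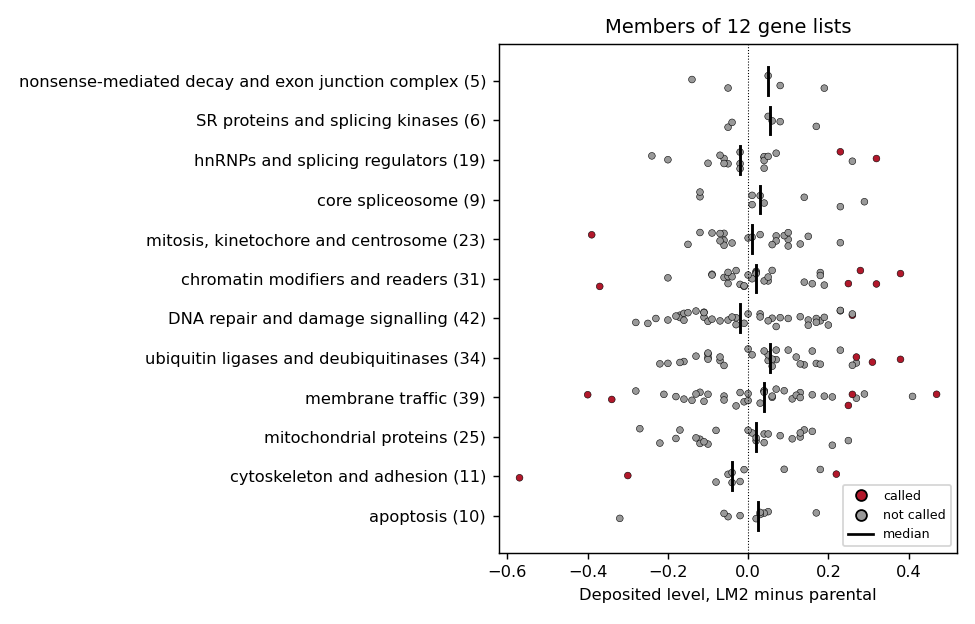
Deposited difference in inclusion level (LM2 minus parental, fraction) of each member in 12 gene lists, with the number of members in brackets; bars are list medians and red points called members. All list medians lay between -0.04 and 0.055.

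In length, introns and base composition the members were close to the frame-preserving exons. Their median length was 128 nt (quartiles 95 and 176), against 120 nt for frame-preserving exons, and 918 left a remainder of 1 and 909 a remainder of 2 after division by 3. The upstream intron had a median of 2247 nt and the downstream intron 1956 nt, against 2277 and 2145 nt for frame-preserving exons. Of 1781 members with a transcript sequence the median GC content was 49.7%, and 54.4% ended in AG, the common last bases of an exon, against 50% GC and 57% ending in AG among frame-preserving exons. Members overlapped more than 1 gene of the same strand in 163 cases and a gene of the other strand in 147. The exon of NPIPB3 and that of NPIPB13 carried identical read numbers, 516 inclusion and 12 skipping reads in LM2 cells, against 520 and 26 in parental cells, so that these gene copies cannot be told apart.

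The exons nearest the level bounds of the rule were picked by their mean level, so their nearness in level is no finding. Just inside the lower bound were XRRA1 (0.26 in LM2, 0.14 in parental cells), RAB35 (0.23 in LM2, 0.17 in parental cells) and RAD52 (0.15 in LM2, 0.25 in parental cells), and just outside it ATG4B (0.16 in LM2, 0.23 in parental cells), CAPN7 (0.23 in LM2, 0.16 in parental cells) and YTHDF3 (0.19 in LM2, 0.2 in parental cells). Just inside the upper bound were C8orf58 (0.75 in LM2, 0.85 in parental cells) and RGS20 (0.69 in LM2, 0.91 in parental cells), and just outside it FAM171A1 (0.86 in LM2, 0.75 in parental cells), UBXN1 (0.74 in LM2, 0.87 in parental cells) and a further exon of JMJD1C (0.78 in LM2, 0.83 in parental cells).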

How the data were processed

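Total RNA of 4 samples, 2 of LM2 and 2 of parental cells, was sequenced; alignment used STAR 2.7 on hg38, per the submitters' processing notes. No source used here gives the version or settings of MISO or says how the replicates were combined. The authors deposited 1 MISO table for each line, whose inclusion levels and interval bounds are fractions, with read counts per class for each event written by the authors in 1 text column. A further deposited table compares the lines: its difference, a signed score computed by the authors, is LM2 minus parental, checked in all 39160 events, and its Bayes factor is a ratio computed by the authors. No column of per-sample values was left unused (0 columns).

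From these, exons were matched to GENCODE 29, 1 event was kept for each exon, and levels from reads, exact odds ratio intervals and exact binomial (Clopper-Pearson) intervals at 95% were computed with Python 3.11.15, pandas 2.3.3 and scipy 1.17.1. Intervals and limits cover counting error only, since reads are not independent molecules. Depth per sample is unknown; the median sum of inclusion and skipping reads over members was 38 in LM2 and 48 in the parental line. With 1 table for each line no test across samples was possible, and the deposited Bayes factor served as the call. The frame reading was tested on made transcripts with a stop planted in the skipped form only, and the other outcomes were not tested in this way. The read-based level was tested on simulated reads drawn by its own formula, which checks the computation only. The members and gene lists were chosen with earlier results of these data known. Named exons were every called member with 20 reads in each table, the 8 best covered, up to 4 of each list, those nearest the level bounds and the 4 most read at 0.45 to 0.55 in both lines; those described by outcome class and the top 30 with 5 skipping reads in each table were chosen after their values were seen. A few named exons and 1 sequence are not reported here.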

Additional observations from a re-analysis of the deposited data

How the results depend on the processing

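No paired analysis was possible because each line has 1 pooled table whose columns carry no replicate number, and no replicate could be left out for the same reason. The number of members, 1827, was 682 with at least 50 informative reads in each table, 1056 at mean levels of 0.3 to 0.7, 3440 at 0.1 to 0.9, 1158 with the whole exon coding in a transcript and 751 with the mean level taken from reads. Among settings added after seeing the data, it was 1204 with at least 1 skipping read and 472 with at least 5 in each table; it was 1995 where the level range was applied before the event was chosen. Members called higher in LM2, 59, were 35 at levels of 0.3 to 0.7, 38 with the whole exon coding, 30 at a difference of 0.3, 29 with at least 1 skipping read, 10 with at least 5 in each table and 10 where the read-based difference also had to reach 0.1. Members called lower, 16, were 2 with 50 reads, 9 with the whole exon coding, 26 at a Bayes factor of 5, 10 at a Bayes factor of 20 and 5 with at least 5 skipping reads in each table. The other counts of calls stayed within 1.5 times. The median difference of 0.02 was 0 from reads. Premature stops on skipping, 767, were 120, and on inclusion, 182, were 101 among members with at least 5 skipping reads in each table. Another distance to the last junction, another transcript or event neighbours kept both counts within 1.5 times. Both choices of transcript used the same order of type and neighbours, so this setting could not show how the counts depend on it. Median exon length, 128 nt, was 142.5 nt at 50 reads. Of the named members 69 moved by 0.1 or more when levels came from reads, and called differences changed sign in TRAPPC1 (-0.03), SNX5 (-0.032), PHF20 (-0.029) and NSD2 (-0.01). The cause of these shifts was not tested.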
